A study of Homo sapiens with 6 samples.

Results

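The insulin-like growth factor binding proteins (IGFBPs) were followed on 6 two-colour arrays of the GM00156 cell line, from the Coriell repository. Probes were chosen by name alone, as those whose single gene symbol is IGFBP followed by a digit from 1 to 7. The rule found 9 probes for 7 genes among 11304 single-gene probes for 8987 genes. IGFBP5 had 3 probes and each of the other 6 genes had 1. All 9 were measured on all 6 arrays, so no member was lost to a filter.

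On 5 arrays, mRNA of cells given emetine was set against mRNA of untreated cells. The treated cells had 10 h of emetine, which stops translating ribosomes, at a concentration of 100 µg/ml. Treated and untreated cells alike then received 5 µg/ml actinomycin D, which stops transcription, and the harvests followed 0 min, 10 min, 30 min, 1 h and 8 h later. The remaining array, called self-self, hybridised mRNA of emetine-treated cells of the 0 min harvest with itself. The labels mention no actinomycin D for it. With 1 array per harvest, precision is limited by their number. Nothing says that the harvests came from separate cultures. The main p-values measure only the spread between these 5 arrays around a line over time, moderated by the spread of other probes. Where a p-value comes from a fit with other arrays or without a slope, this is said. The labels give no cell type, and a ratio shows no level by which markers could check one.

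Each value is a log2 ratio of both channels of an array, and 1 unit is a doubling. The labels do not settle which channel is on top. The sides are therefore called positive and negative, and no value says that emetine raised or lowered a transcript. The labels of the 0 min array conflict: its channel names give treated and untreated mRNA, its description treated mRNA on both sides. Spread also differed between arrays, with robust SDs (scaled median absolute deviations) of 0.44, 0.91, 0.78, 0.53 and 0.87 from 0 min to 8 h against 0.12 for self-self.

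IGFBPs are secreted proteins that bind the growth factors IGF1 and IGF2 and keep them from, or deliver them to, the IGF1 receptor. In IGFBP1 to IGFBP6 a cysteine-rich domain at either end flanks a variable linker, which proteases cut to release the bound factor. IGFBP3 carries most circulating IGF together with IGFBP5, IGFBP5 also binds extracellular matrix, and IGFBP1 is the member that insulin and nutrients regulate within hours in liver. IGFBP6 prefers IGF2, and IGFBP7 binds IGFs only weakly.

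The family divided between the sides. IGFBP1 was positive on all 5 harvests with a mean log2 ratio of 2.01. IGFBP3, IGFBP4 and 1 probe of IGFBP5 were negative on all 5, with means of -1.21, -0.59 and -2.40. IGFBP2, IGFBP6 and IGFBP7 lay near 0. In limma's fit over 13151 probes, 4 IGFBP probes passed an adjusted p of 0.05 with a negative mean, 1 passed with a positive mean and 4 did not pass. Over all probes 26.3% passed with a negative mean and 35.0% with a positive mean. The median of the 9 IGFBP means was -0.26, beside 0.12 over all probes. With so many probes passing, 5 of 9 against 61.3% is no more than the background. Members that passed differed in the size of their ratios. Tested against the single self-self array in place of 0, no IGFBP probe passed (lowest limma adjusted p = 0.167), and 4 had an unadjusted p under 0.05. Of all 13091 probes in that fit, 0 passed with a positive and 2 with a negative mean, and 2684 had an unadjusted p under 0.05. IGFBP1, IGFBP3, IGFBP4 and IGFBP5 probe 4040 passed with each array left out in turn, the 0 min array included.

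**Figure D1:**
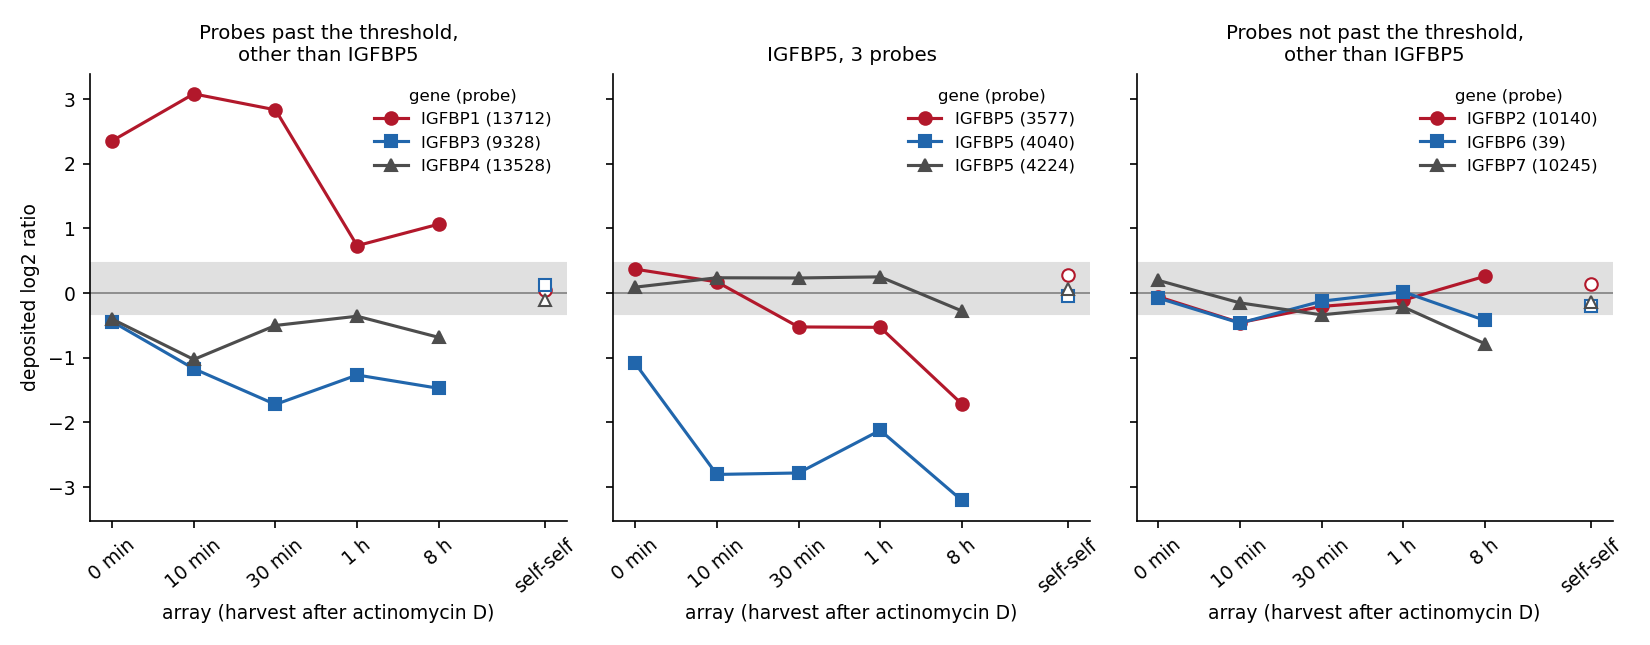
Deposited log2 ratio (y axis) of the 9 IGFBP probes on each array (x axis), with the 5 harvests joined by lines and the self-self array as open symbols; the grey band is the central 99% of all probes on the self-self array (-0.32 to 0.47). IGFBP1 stays above the band and IGFBP3, IGFBP4 and IGFBP5 probe 4040 below it on all 5 harvests.

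IGFBP1 was the only IGFBP above the self-self range, and it was so on every harvest. Its log2 ratios were 2.35, 3.08, 2.83, 0.73 and 1.07 from the 0 min to the 8 h harvest, against 0.05 on the self-self array. The first 3 harvests were high and the last 2 were lower, a split made after the values were seen. The share of all probes that divide this way was not counted. The mean was 2.01 (SE 0.26, 5 arrays, limma adjusted p = 0.000636), which is a ratio of 4.04-fold. Across all probes its mean ranked 268 from the top, above 98.0% of them.

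The place of IGFBP1 among all probes dropped over the course. It lay above 99.05% of probes at 0 min, 99.2% at 10 min and 98.7% at 30 min, then above 91.6% at 1 h and 83.5% at 8 h. These ranks do not depend on the unequal spread of the arrays. With arrays centred and scaled to equal spread its values were 3.69, 2.32, 2.42, 0.91 and 0.75, so the peak at 10 min in the deposited values became a peak at 0 min, while the lower values at 1 and 8 h stayed. Its slope on log2(1 + min / 10) was -0.34 per unit (SE 0.14), the 58th lowest of all slopes. That slope did not pass (unadjusted p = 0.0397, limma adjusted p = 0.313).

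IGFBP3, the main carrier of IGFs in serum, was at -0.44, -1.17, -1.72, -1.27 and -1.47 from the 0 min to the 8 h harvest, against 0.13 on the self-self array. At 0 min the deposited ratio was nearest to 0, and the other 4 lay closer together. This course depended on the unequal spread of the arrays. With arrays centred and scaled to equal spread the values were -0.78, -0.97, -1.69, -1.775 and -1.32, so the 10 min value lay nearest to that at 0 min. IGFBP3 was above 13.7% of probes at 0 min, 10.2% at 10 min and 1.45% at 30 min. Its mean of -1.21 (SE 0.16, 5 arrays, limma adjusted p = 0.000636) is a ratio of 2.32-fold and was higher than only 3.14% of probes. Leaving out each array in turn kept the mean between -1.41 and -1.09.

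IGFBP1 and IGFBP3 are neighbours on chromosome 7, with no protein-coding gene between them in RefSeq's GRCh38.p14 annotation. Their log2 ratios stood on opposite sides of 0 on every harvest. The difference IGFBP1 minus IGFBP3 was 2.79, 4.25, 4.56, 2.0 and 2.54 on the 5 harvests in order of time, against -0.08 on the self-self array. A single slide's normalisation moves both genes alike, so a shift of zero leaves this difference as it is. Unequal spread of the arrays does change it. With arrays centred and scaled, both genes stayed on opposite sides of 0 on every harvest, but IGFBP1 was then farthest from 0 at 0 min (3.69). How the difference moved over time is therefore not read from these values.

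IGFBP4 restrains IGF action until the protease PAPP-A cleaves it. Its log2 ratios were -0.40, -1.03, -0.50, -0.36 and -0.68 from the 0 min to the 8 h harvest, against -0.10 on the self-self array. All 5 lay below the self-self range, the 10 min value farthest. The mean was -0.59 (SE 0.14, 5 arrays, limma adjusted p = 0.00664), a ratio of 1.51-fold. Of all probes 16.8% had a lower mean, so its size was not unusual. It showed no trend, with a slope of -0.005 per unit whose sign turned under 4 alternatives (limma adjusted p = 0.987).

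IGFBP5, the most conserved member and a binder of extracellular matrix, gave a different answer from each of its 3 probes. Probe 4040 was at -1.08, -2.80, -2.78, -2.12 and -3.21 from the 0 min to the 8 h harvest, against -0.05 on the self-self array. All its harvests lay far below the self-self range. Its mean of -2.40 (SE 0.22, 5 arrays, limma adjusted p = 0.000499) is a ratio of 5.28-fold. This was the 31st lowest of 13151 probe means, and the probe was under the 1st percentile of probes on each harvest, from 0.160% at 8 h to 0.542% at 0 min.

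Probe 3577 cites the same GenBank record as probe 4040. Its log2 ratios were 0.37, 0.17, -0.52, -0.53 and -1.71 from the 0 min to the 8 h harvest, against 0.29 on the self-self array. The first 2 values were positive and within the self-self range, and the last 3 were negative and below it. The mean was -0.44 (SE 0.11, limma adjusted p = 0.0107). Without the 8 h array the mean was -0.13 and did not pass (limma adjusted p = 0.470), and fitted without a slope it did not pass either (limma adjusted p = 0.194).

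What marked probe 3577 was its trend. Its slope of -0.38 per unit (SE 0.06) had the 30th smallest p-value of 13151 slopes (unadjusted p = 0.00022, limma adjusted p = 0.0931). No slope of any probe passed with all 5 arrays, 0.00%, the lowest adjusted p being 0.0669. Without the 1 h array 574 probes passed, probe 3577 among them (slope -0.38, limma adjusted p = 0.0124). With any other array left out its slope did not pass. The limma adjusted p-values were 0.168 without 0 min, 0.233 without 10 min, 0.162 without 30 min and 0.9998 without 8 h. On the rank of harvest time it did not pass either (limma adjusted p = 0.408). It lay above 76.6% of probes at 0 min and above 1.99% at 8 h.

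Probe 4224 cites another IGFBP5 record. It stood at 0.09, 0.24, 0.23, 0.25 and -0.28 from the 0 min to the 8 h harvest, against 0.07 on the self-self array. None of these values left the self-self range. The mean of 0.11 (SE 0.12) did not pass (limma adjusted p = 0.441). On all 3 IGFBP5 probes the deposited 8 h value was the lowest of the 5. With arrays centred and scaled, this held for probes 3577 (-1.52) and 4224 (-0.34). Probe 4040 was then lowest at 1 h (-2.92, against -2.73 at 8 h). The share of all probes lowest at 8 h was not counted.

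The gap between the probes was present on every harvest. Probe 4040 minus probe 3577 was -1.46, -2.98, -2.26, -1.59 and -1.49 in order of time, against -0.33 on the self-self array. Probe 4040 minus probe 4224 was -1.18, -3.04, -3.02, -2.37 and -2.93, against -0.11 on the self-self array. Both gaps exceed the self-self array's gap several times over on each harvest. The table gives neither spot intensities nor the part of the transcript each clone covers, and which probe reports IGFBP5 mRNA was not tested.

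Set beside other genes, this disagreement was wide. Among 4017 pairs of probes that share a gene and a GenBank record, from 1403 genes, the means differed by a median of 0.14, and 90% of pairs differed by less than 0.81. Genes with many probes give many of these pairs. Probes 4040 and 3577 differed by 1.96, and 61 pairs (1.52%) differed at least as much. Of 122 genes with 3 fitted probes, 4, IGFBP5 included, had a range of means of 2.51 or more, which is the range of IGFBP5, where the median range was 0.59. The pair was singled out after its values were seen, so these shares are a description. Averaged over its probes, IGFBP5 had a mean of -0.91 (SE 0.12, limma adjusted p = 0.000617 over 8748 genes), a value that none of its 3 probes shows.

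**Figure D2:**
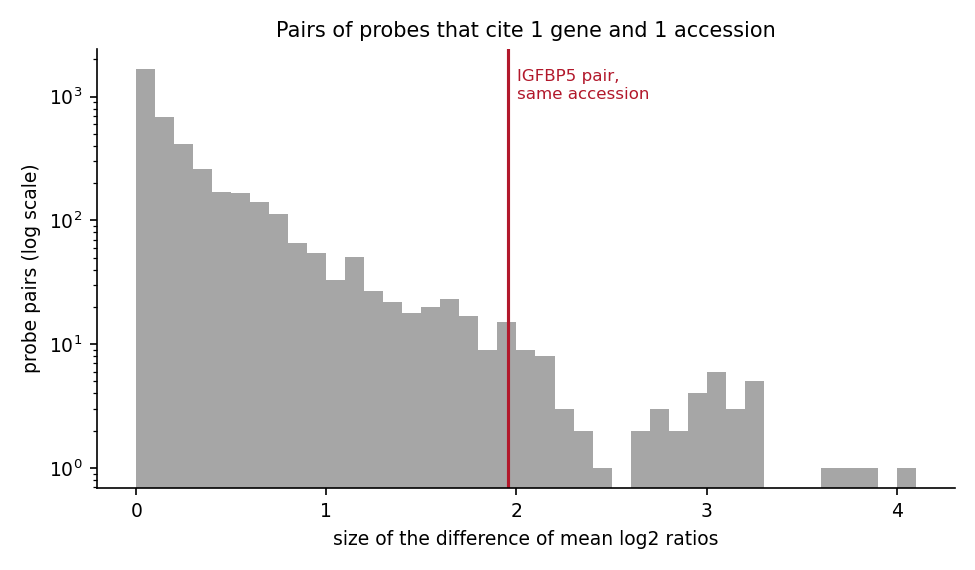
Number of probe pairs (y axis, log scale) by the size of the difference between their mean log2 ratios over 5 harvests (x axis), for the 4017 pairs that share a gene and a GenBank record. The line marks IGFBP5 probes 3577 and 4040 at 1.96, far to the right of the median of 0.14.

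IGFBP2 and IGFBP5 are neighbours on chromosome 2, again with no protein-coding gene between them. IGFBP2, a binder prominent in fetal tissue and brain, was at -0.05, -0.46, -0.21, -0.11 and 0.26 from the 0 min to the 8 h harvest, against 0.14 on the self-self array. Only the 10 min value left the self-self range. Its mean was -0.11 (SE 0.12, limma adjusted p = 0.436). IGFBP2 had the only slope above 0 among the IGFBP probes, 0.09 per unit, and it did not pass (limma adjusted p = 0.638). Over all probes 49.4% of slopes were below 0.

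IGFBP6 was at -0.08, -0.46, -0.12, 0.02 and -0.42 from the 0 min to the 8 h harvest, against -0.20 on the self-self array. The values at 10 min and 8 h lay below the self-self range. Its mean of -0.21 (SE 0.12) was near its self-self value and did not pass (limma adjusted p = 0.167). It passed once arrays were centred and scaled (mean -0.28, limma adjusted p = 0.0359), where negative calls over all probes rose from 3454 to 4382.

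IGFBP7 was at 0.20, -0.15, -0.34, -0.21 and -0.78 from the 0 min to the 8 h harvest, against -0.13 on the self-self array. The 0 min value was positive, and those at 30 min and 8 h lay below the self-self range. The mean of -0.26 (SE 0.11) did not pass (limma adjusted p = 0.077). It passed with arrays centred on their medians (-0.35, limma adjusted p = 0.0294), with centring and scaling (-0.30, limma adjusted p = 0.0223) and without the 0 min array (-0.37, limma adjusted p = 0.0352). Over all probes, negative calls rose from 3454 to 4035 with centring and to 4382 with scaling. Without the 8 h array the mean was -0.13 (limma adjusted p = 0.468). Fitted without a slope it did not pass either (limma adjusted p = 0.173). Its slope of -0.16 per unit did not pass (unadjusted p = 0.0275, limma adjusted p = 0.265).

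**Figure D3:**
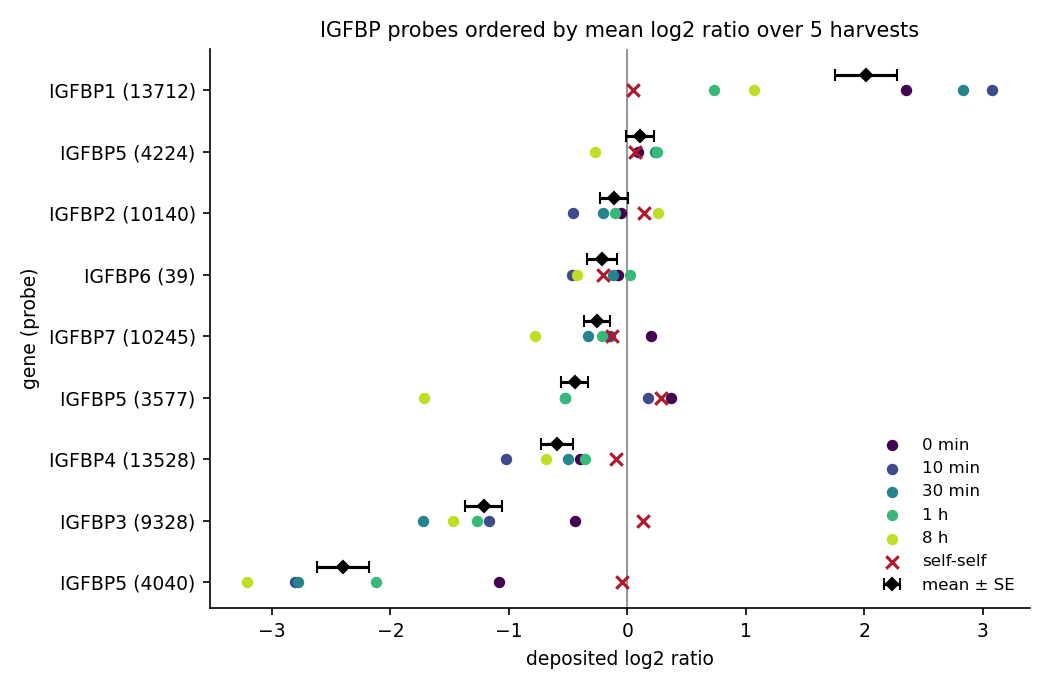
Log2 ratios (x axis) of each IGFBP probe (y axis, ordered by mean), with a dot for each harvest, a cross for the self-self array and a diamond for the mean with its limma SE over 5 arrays. Means run from -2.40 for IGFBP5 probe 4040 to 2.01 for IGFBP1, while the crosses stay between -0.20 and 0.29.

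In the order of means, IGFBP1 stood alone at the top and IGFBP5 probe 4040 alone at the bottom, each apart from its neighbour by over 1 log2 unit. IGFBP5 probe 4224, IGFBP2, IGFBP6, IGFBP7, IGFBP5 probe 3577 and IGFBP4 followed each other closely between 0.11 and -0.59, and each differed from the next by less than the sum of both SEs. IGFBP3 and IGFBP4 were apart by more than that. Below the central 99% of the self-self array lay 3, 5, 5, 4 and 6 of the 9 probes from the 0 min to the 8 h harvest, where 20.8%, 34.1%, 29.9%, 26.4% and 29.8% of all probes did. Above it lay 1 IGFBP probe at each harvest, where 18.6%, 33.2%, 33.3%, 19.2% and 33.5% of all probes did. IGFBP3, IGFBP4 and IGFBP5 probe 4040 were below the range on all 5 harvests, as were 13.1% of all probes, and IGFBP1 was above it on all 5, as were 10.5%. On the self-self array 0 of the 9 were outside. A limit of 1 log2 unit in place of that range left 15 of the 45 IGFBP values outside instead of 28. The share of all probes outside that limit was not counted, so this number says nothing particular of the family.

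Slopes were below 0 for 8 of the 9 probes, with a median of -0.14 per unit beside 0.002 over all probes. Without the 8 h array the slopes of IGFBP4, IGFBP6 and IGFBP5 probe 4224 were above 0. With an unadjusted p under 0.05 there were 4 IGFBP slopes, all negative (IGFBP1, IGFBP5 probes 3577 and 4040, and IGFBP7). Over all probes 526 of 13151 had such a negative slope, and 14.2% had such a slope of either sign. All 9 probes share the same 5 arrays, and probes 3577 and 4040 share a gene, so these 4 are not independent. The negative slope of IGFBP1 went with a positive ratio, those of IGFBP5 probe 4040 and IGFBP7 with a negative mean, and none of these slopes passed. For probe 4040 the slope was -0.27, but -0.10 without the 0 min array and -0.16 with arrays centred and scaled. For IGFBP7 it was -0.16, and -0.13 and -0.16 in these settings.

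The promoters of 3 genes are shown because each gene had a probe that was negative on all 5 harvests. For IGFBP5 this was probe 4040 alone. RefSeq's promoter table for GRCh38.p14 holds 5 of the 7 genes. Each sequence is the 250 bases before the annotated start, 5′ to 3′ on the gene's strand, with capitals for matches on either strand to 4 motifs: the TATA box spelled TATAAA, the CCAAT box spelled CCAAT, the GC box spelled GGGCGG and the AP-1 site spelled TGACTCA. No matches overlap here. IGFBP3 is at chr7:45921273-45921522 on the minus strand, IGFBP4 at chr17:40443200-40443449 on the plus strand and IGFBP5 at chr2:216695550-216695799 on the minus strand.
IGFBP3: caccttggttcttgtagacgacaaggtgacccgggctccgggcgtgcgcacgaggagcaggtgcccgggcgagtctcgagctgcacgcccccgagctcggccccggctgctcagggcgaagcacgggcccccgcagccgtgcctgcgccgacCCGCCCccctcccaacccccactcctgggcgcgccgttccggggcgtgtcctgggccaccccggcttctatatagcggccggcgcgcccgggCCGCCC
IGFBP4: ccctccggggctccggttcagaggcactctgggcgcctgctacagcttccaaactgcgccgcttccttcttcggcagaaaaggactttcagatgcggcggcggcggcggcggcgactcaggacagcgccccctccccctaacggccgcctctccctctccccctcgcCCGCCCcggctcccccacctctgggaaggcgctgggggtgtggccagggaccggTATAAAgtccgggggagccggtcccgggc
IGFBP5: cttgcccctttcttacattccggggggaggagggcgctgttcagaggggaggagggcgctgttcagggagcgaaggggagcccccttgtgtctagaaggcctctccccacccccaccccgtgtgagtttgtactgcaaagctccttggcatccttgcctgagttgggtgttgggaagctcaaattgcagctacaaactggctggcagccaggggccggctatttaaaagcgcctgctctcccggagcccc

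IGFBP3 held 2 GC boxes, IGFBP4 held 1 GC box and 1 TATA box whose first base lies 29 bases before the start, and IGFBP5 held none of the 4 motifs as spelled. The 3 windows had 76.0%, 71.6% and 61.2% G and C, beside a median of 58.0% over 35116 windows. Of those windows 42.6% held a GC box, 10.7% the TATA box, 32.0% the CCAAT box and 4.20% the AP-1 site. A match describes letters in this window and shows no use of a site.

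Genes whose log2 ratios were most like those of each member were found by Euclidean distance over the 5 harvests among 8748 genes, as a description. For IGFBP1 they were led by CLCN6, a chloride and proton exchanger of endosomes, at 2.31, 2.89, 2.17, 0.62 and 1.39 in order of time (distance 0.78). RCAN2, a regulator of calcineurin, followed at a distance of 0.78. IGFBP3 was closest to the kinesin KIF3C (distance 0.30) and the plexin PLXNA3 (0.32), and IGFBP4 to the interleukin receptor IL1R1 (0.09). For IGFBP5 probe 4040 the closest were the chaperone HSPA8 (0.35), the tetraspanin TSPAN2 (0.40) and KDELR3, a receptor that returns proteins to the endoplasmic reticulum (0.50). ADAM12, a protease that cleaves IGFBP3 and IGFBP5, came next (0.63). The other IGFBP5 profiles had other closest genes. They were SMARCC1 for probe 3577 (0.47), NNT for probe 4224 (0.12) and TRAK2 for the gene mean (0.25). Likeness depended on the measure: of the 10 nearest genes to each of the 7 IGFBP gene means, 70 in all, 47 were kept after centring and scaling and 6 with Pearson's correlation. For the neighbours of the single IGFBP5 probes no other measure was run.

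Around the IGFBPs, the ligands and receptors were measured as gene means over their probes. IGF1R, the receptor through which IGFs signal, was at -0.22, -0.58, -0.60, -0.61 and -1.20 from the 0 min to the 8 h harvest, against 0.02 on the self-self array. Its mean was -0.64 (SE 0.11, limma adjusted p = 0.00158), and both of its probes were negative on all 5 harvests. IGF2R, which removes IGF2 from the cell surface, stood on the other side at 1.18, 1.88, 1.16, 0.44 and 0.15, against 0.04 on the self-self array. Its mean was 0.96 (SE 0.16, limma adjusted p = 0.0017). Its deposited values at 1 and 8 h were the lowest, as for IGFBP1 and PAPPA. The share of all genes with such a course was not counted. INSRR, a receptor related to the insulin receptor, was at -0.78 (SE 0.16, limma adjusted p = 0.00433).

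The ligands and the insulin receptor did not pass. IGF1 had a mean of -0.19 and INSR of -0.20, with limma adjusted p-values of 0.186 and 0.289. IGF2 over 3 fitted probes was at 0.26 and INS at 0.29, with limma adjusted p-values of 0.0641 and 0.0609. The probes of IGF2 differed as well, 2 of them passing at 0.48 and 0.43 and the other at -0.12. One further IGF2 probe and the IGF2BP2 probe held the repeated filler value at 30 min and were left out of the fit.

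**Figure D4:**
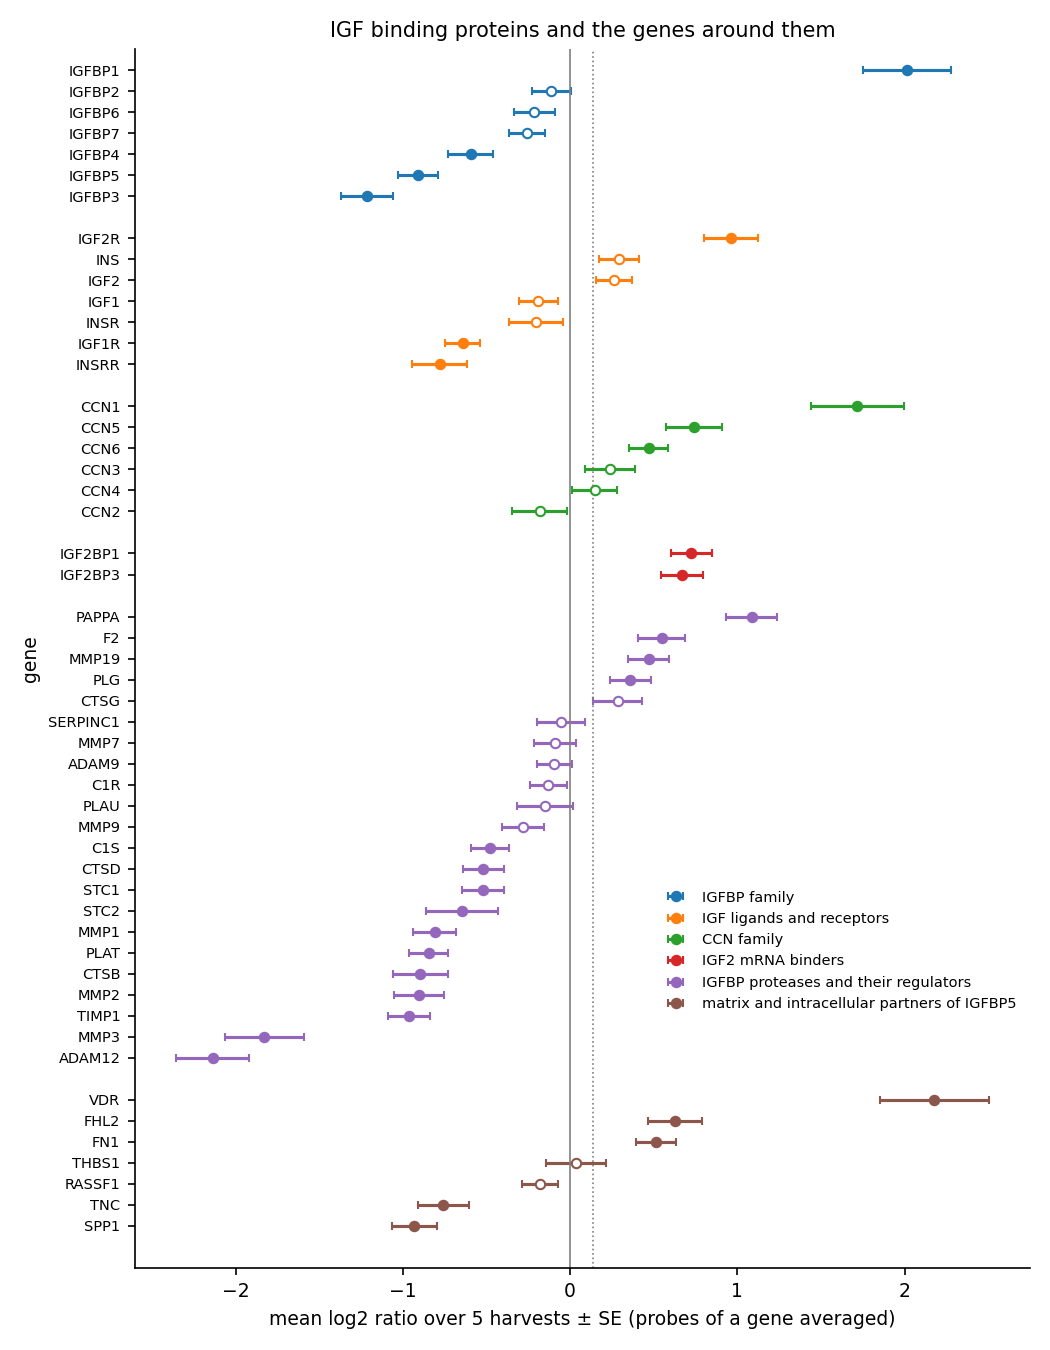
Mean log2 ratio over 5 harvests with its limma SE (x axis) for genes of the IGF system (y axis, probes of a gene averaged), coloured by list; filled symbols passed an adjusted p of 0.05 and the dotted line is the median of all genes, 0.14. IGFBP1 and the positive PAPPA stand opposite IGFBP3, ADAM12 and MMP3.

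The proteases that cut IGFBPs, with their regulators, lay mostly on the negative side. Of 22 measured genes 11 passed with a negative mean, 4 with a positive mean, and 7 did not pass. Over all genes 25.3% passed with a negative mean and 37.0% with a positive mean. With arrays centred these counts were 12 and 3 of the list, where 29.9% of all genes passed with a negative and 30.2% with a positive mean. The list's median was -0.38, beside 0.14 over all genes. ADAM12 was at -0.83, -2.64, -2.49, -1.95 and -2.77 in order of time, against 0.04 on the self-self array, with a mean of -2.14 (SE 0.22, limma adjusted p = 0.000462). The matrix proteases MMP3 and MMP2 had means of -1.83 and -0.90, their inhibitor TIMP1 of -0.96 over probes at -1.76 and -0.17, and the lysosomal protease CTSB of -0.89.

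PAPPA, the protease of IGFBP4, was on the positive side with IGFBP1. Its log2 ratios were 1.29, 1.70, 1.08, 0.52 and 0.84 from the 0 min to the 8 h harvest, against 0.07 on the self-self array. The mean was 1.09 (SE 0.15, limma adjusted p = 0.000762). Its inhibitors STC1 and STC2 had negative means of -0.52 and -0.65 (limma adjusted p = 0.00775 and 0.0302), with STC2 positive at 0 min. On every harvest PAPPA and IGFBP4 thus had ratios of opposite sign.

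Of 7 measured matrix or intracellular partners of IGFBP5, 3 had positive means that passed and 2 had negative means that passed, near the shares of 37.0% and 25.3% over all genes. The vitamin D receptor VDR was at 2.18 (SE 0.33) and the LIM protein FHL2 at 0.63 (SE 0.16), with 8 h values of 4.34 and 2.33. The matrix proteins SPP1 and TNC were at -0.93 and -0.76. Fibronectin, FN1, passed at 0.51 but stood at 0.49 on the self-self array as well.

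The CCN proteins share the IGF-binding domain at their amino end. Of their 6 genes 3 passed, each with a positive mean, where 37.0% of all genes did, which in so short a list says nothing particular of the family. The counts were the same with arrays centred or scaled. CCN1 had a mean of 1.72 (SE 0.28, limma adjusted p = 0.00138), and its probes, which cite 1 record, agreed at 1.73 and 1.70. CCN5 and CCN6 were at 0.74 and 0.47. CCN3, CCN4 and CCN2 did not pass, at 0.24, 0.15 and -0.18. IGF2BP1 and IGF2BP3, which bind IGF2 mRNA and are not binding proteins of the growth factor, were positive at 0.72 and 0.67 (limma adjusted p = 0.00173 and 0.00276).

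Downstream of the receptors, 17 of 37 measured genes of IGF and insulin signalling passed with a positive mean and 9 with a negative mean, beside 37.0% and 25.3% of all genes, with a median of 0.25. With arrays centred, which put the median of all genes at 0.04 in place of 0.14, these counts were 14 and 13, beside 30.2% and 29.9% of all genes. The kinase subunit PIK3R1 was at 2.31, the cytokine signalling inhibitor SOCS3 at 1.55, the receptor substrate IRS1 at 1.45 and FOXO1, a transcription factor known to act on the IGFBP1 gene in liver, at 1.17. EIF4EBP1, the translation repressor under mTOR, was at -1.36. Other secreted antagonists of growth factors also lay on both sides, with 4 positive and 5 negative calls among 14 where 37.0% and 25.3% of all genes were called. With arrays centred the counts were 2 and 8, beside 30.2% and 29.9%. The Wnt antagonist SFRP1 was at -2.67, close to IGFBP5 probe 4040, and LTBP2 and FSTL1 were at -1.25 and -1.0.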

How the data were processed

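Per the labels, the authors labelled 4 µg of emetine-treated mRNA with Cy3 and of untreated mRNA with Cy5, subtracted background, divided each sample's intensity by that of its reference, normalised within each slide with housekeeping genes and discarded ratios of quality below 0.5. The deposited table holds log2 ratios of 14080 probes, the base being read from the values and the direction not stated. Image software is not given in the sources used here. Column medians were 0.06, 0.12, 0.19, 0.08 and 0.18 for the harvests and 0.01 for self-self, so no centring was found. On every array 333 to 534 probes hold one repeated value and were treated as not measured, which left 13151 probes with all 5 harvests. Symbols are those of the platform annotation after an update by gene ID (11282 of 11304 single-gene probes matched; 446 probes have several symbols and 2330 none).

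Every probe's mean and its slope on log2(1 + min / 10), centred, were fitted with limma 3.58.1 in R 4.3.3, with 3 residual degrees of freedom, eBayes and Benjamini-Hochberg adjustment over all probes, two-sided. The test was tried on simulated data. List values average a gene's fitted probes. Members, lists, rules and alternatives were chosen with earlier results of these data known. By rule, all members, the 10 nearest genes of each, the lists of ligands and receptors, CCN and IGF2 mRNA binders, and up to 6 genes of each other list with the largest mean in size could be named, and only some of the nearest genes and of the other lists are; IGFBP5 by probe, other genes named and the promoter set were chosen after their values were seen. Alternatives concerned filler values, centring, scaling, slope, each array left out, the self-self array in the fit, eBayes and averaging of probes.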

Additional observations from a re-analysis of the deposited data

How the results depend on the processing

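No paired analysis was possible because each harvest has 1 array. Of 189 values of single IGFBP probes under the alternatives, 177 kept their side of the threshold, 6 of them being slopes that changed sign without passing, 7 lost their call and 5 gained one. IGFBP1, IGFBP3, IGFBP4 and IGFBP5 probe 4040 kept theirs with each array left out. In a fit of the harvests against the single self-self array, 0 positive and 2 negative means passed over all probes. Among IGFBP probes 0 and 0 passed, and among other genes of the IGF lists 0 and 0. There, 2684 of 13091 probes and 4 IGFBP probes had an unadjusted p under 0.05, and the lowest adjusted p of an IGFBP probe was 0.167 (limma). This fit rests on 1 reference array. Slopes passed for 1 probe after centring, 23 after scaling, 21 with robust eBayes and 1 gene after averaging; leaving out each array gave 0 to 574 probes and 0 to 1 IGFBP probe, the highest without 1 h. Averaging probes left 2217 negative calls in place of 3454, with fewer features tested. A limit of 1 log2 unit gave 15 IGFBP values outside in place of 28, with no share of all probes counted for it. Nearest genes shared with Pearson's correlation were 6 of 70.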
